A study of Mus musculus with 12 samples.

Results

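The genes described here are the zinc finger protein genes of the mouse whose symbol is Zfp followed by a number, as expressed in bone marrow-derived macrophages (BMDMs), cells that were raised in culture from bone marrow precursor cells. They were chosen by name and by level. The tables held 334 rows for 332 such symbols after Zfp36 was left out, a row being 1 gene entry of the tables, and 241 rows for 240 symbols reached 1 FPKM in at least 1 of 12 samples. Zfp433 holds 2 of these rows. The 241 rows are 241 of 11191 expressed rows in all, and 10950 other rows were left for comparison. FPKM divides a gene's sequenced fragments by the length of its transcript and by the size of the library, so levels can be compared between genes per length.

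The cells came from wild-type mice aged 8 to 12 weeks and were differentiated for 6 days with L929 supernatant, a source of the macrophage growth factor M-CSF. The control group received no further treatment. The IL-4 group received IL-4, a cytokine of alternative macrophage activation, at 20 ng/ml for 24 h. In the LPS group LPS, a bacterial cell wall component, was given at 100 ng/ml for 3 h by the labels, and the IL-4+LPS group received IL-4 and then LPS. The methods give the LPS dose in a molar unit, and the difference was not settled here. Each group held 3 samples, and the study used 3 animals in 2 experiments, so that the samples of different groups may share an animal. The comparisons ask how LPS and IL-4 changed expression, and whether earlier IL-4 changed the LPS response.

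Most proteins of this naming series carry C2H2 zinc fingers, loops held by cysteines and histidines around a zinc ion, which in arrays read a stretch of DNA. Many also carry a KRAB box at the start of the protein. The KRAB box recruits TRIM28 and with it the histone methyltransferase SETDB1, and such proteins are best known for silencing transposable elements. The symbol Zfp is a naming convention rather than 1 family, so the series also holds transcription factors without a KRAB box, ubiquitin ligases and RNA-binding proteins. Zfp36, which binds AU-rich messenger RNA through fingers of the CCCH type, was not counted.

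Macrophage identity was checked with marker genes. Of 9 listed macrophage markers 7 were found, and their summed level lay between 6567 and 20600 FPKM in every sample. The fibroblast markers summed to at most 3.52 FPKM. All 5 neutrophil markers found were expressed, with sums of 314 to 839 FPKM in control and 501 to 1016 FPKM in LPS samples. Their part in the results was not tested. The 5 LPS check genes were higher in LPS than in control and the 5 IL-4 check genes were higher in IL-4 than in control. FPKM totals were 457583 to 495025 per sample, and relative depth, read from the steps between low values, ran from 0.991 to 3.30 with control replicate 1 set to 1. Replicate 1 stood apart in every group, with a mean correlation of 0.959 in the pairs that held it against 0.977 between replicates 2 and 3, so results are also given for replicates 2 and 3 alone. The labels give no separate cultures or animals for the replicates, and p-values measure the spread between these samples. In these bulk samples, fewer cells of a type and less RNA per cell cannot be told apart.

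Zfp genes were expressed at low levels. The median over the 241 rows of the mean FPKM was 2.11, against 9.13 for the other expressed rows, and 20 of them reached a mean of 10. The threshold took in Zfp583, with a highest value of 1.01 FPKM, Zfp14 with 1.03 and Zfp438 with 1.05, and it left out Zfp72 with 0.998, Zfp287 with 0.973 and Zfp708 with 0.969. Of the 93 rows left out, 13 were listed at 0 in all samples. The control samples decided most of the choice: 236 rows reached 1 FPKM in a control sample, 216 in an IL-4 sample, 157 in an LPS sample and 152 in an IL-4+LPS sample. In 18 of the 241 rows, whatever the group, it was reached only in replicate 1 samples.

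The median FPKM of the 241 rows was 3.28, 2.67 and 2.86 in control replicates 1 to 3, and 2.86, 2.28 and 2.42 in the IL-4 samples. With LPS it was 1.66, 1.36 and 1.43, and with IL-4+LPS 1.60, 1.09 and 1.06. All 6 samples with LPS lay below all 6 without it, and replicate 1 was highest in each group. The summed FPKM of these rows made up 0.272%, 0.238% and 0.246% of the total in control and 0.210%, 0.175% and 0.180% in LPS samples.

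**Figure D1:**
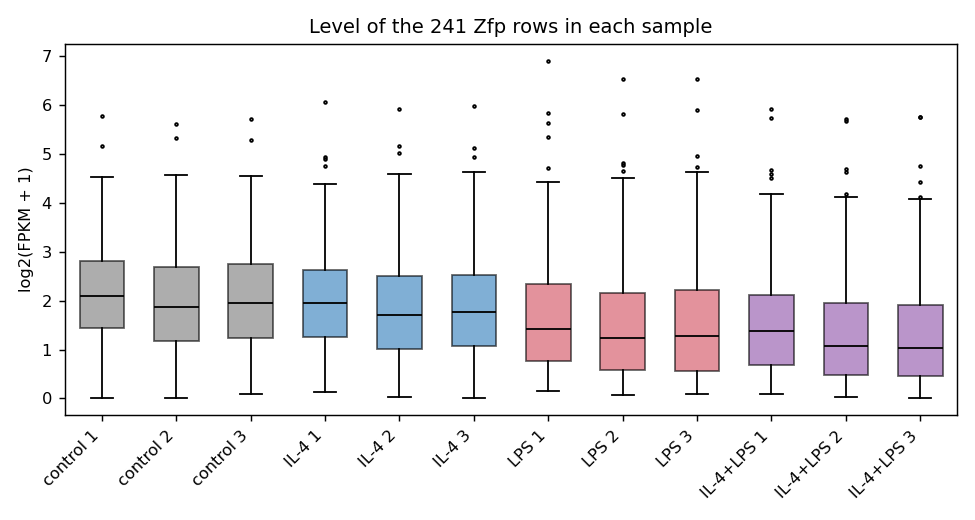
Level of the 241 Zfp rows in each of the 12 samples, as log2(FPKM + 1), where boxes span the quartiles, the line is the median, whiskers reach 1.5 times the box and dots lie beyond. Median FPKM is 2.67 to 3.28 in control samples and 1.36 to 1.66 in LPS samples.

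On the deposited scale, LPS lowered most expressed Zfp genes. Of the 241 rows, 179 were lower in LPS than in control and 16 were higher, by limma with a Benjamini-Hochberg adjusted p under 0.05 over all 11191 expressed rows. These are 74.3% and 6.64% of the Zfp rows, and over all expressed rows 57.7% were lower and 16.9% higher. The fitted log2 fold change, taken on log2(FPKM + 1), was below 0 in 216 rows. Its median was -0.61 with quartiles of -0.88 and -0.34, against -0.44 for all other expressed rows. The difference between these medians was -0.18. It ran from -0.22 to -0.084 with 1 sample left out at a time, the smallest without control replicate 1, and was -0.019 after quantile normalization. The ratio of mean FPKM, LPS over control, had a median of 0.485 in Zfp rows and 0.689 in the others. In 189 Zfp rows all 3 LPS samples lay below all 3 control samples and in 17 all lay above, while over all expressed rows 58.7% and 17.9% did so.

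The counts depended on how libraries were scaled. The median of all expressed rows was -0.44 with LPS and became -0.14 after median scaling and -0.12 after quantile normalization. With median scaling 128 Zfp rows were lower and 23 higher, and 39.8% of all rows were lower. With quantile normalization 67 Zfp rows were lower and 37 higher, which is 27.8% lower in Zfp rows and 38.7% lower in all rows, so the order of the shares turned. The Zfp median stayed below the median of the other rows under both scalings, at -0.40 against -0.14 and at -0.14 against -0.12.

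Zfp rows and other rows of like level were then set side by side. Among rows with a mean under 2 FPKM, the median LPS log2 fold change was -0.65 in 116 Zfp rows and -0.55 in 1862 others. Between 2 and 5 FPKM the order was the reverse, -0.59 in 70 Zfp rows and -0.65 in 1917 others. At 5 FPKM and over it was -0.42 in 55 Zfp rows and -0.35 in 7171 others. The share of lower rows was above that of the other rows in every bin, 77.6% against 63.3%, 74.3% against 66.8%, and 67.3% against 53.3%. The share of higher rows was 3.45% against 10.1%, 4.29% against 10.4% and 16.4% against 20.7%. No test of Zfp rows against other rows was made.

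**Figure D2:**
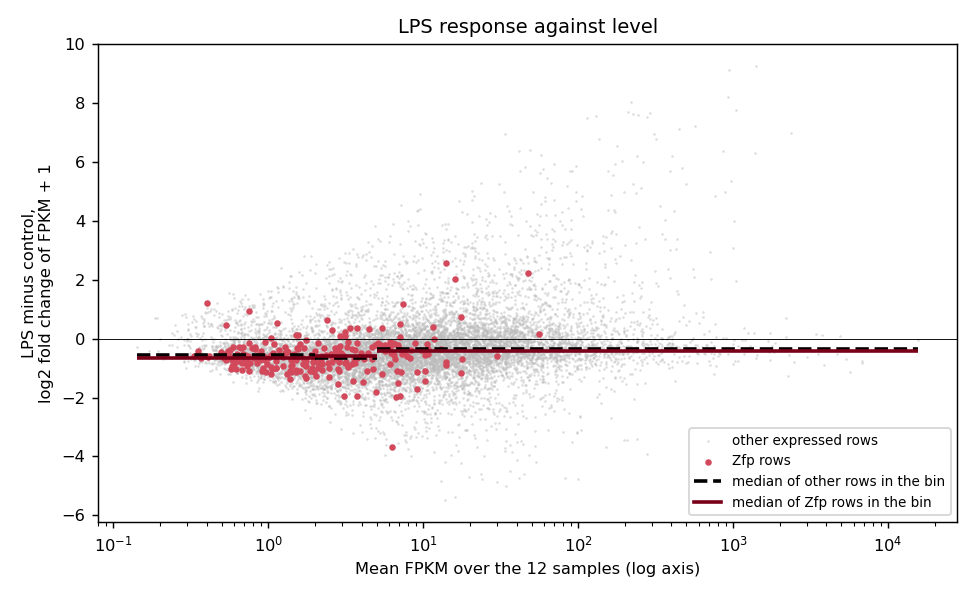
LPS minus control log2 fold change of FPKM + 1 for each expressed row (vertical axis) against mean FPKM over the 12 samples (horizontal log axis), with Zfp rows in red, other rows in grey and lines at the median of each bin of level. The Zfp median is -0.65, -0.59 and -0.42 from the lowest bin to the highest, and that of the other rows -0.55, -0.65 and -0.35.

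A total of 20 Zfp rows entered only through a control sample, so that a lower value elsewhere was part of how they were chosen. Low LPS values were likewise part of how rows that reached 1 FPKM only without LPS were chosen. Of the 241 rows, 157 reached it in an LPS sample. Of the 97 Zfp rows that did not reach it in every group, 85.6% were lower with LPS, beside 58.5% of 1982 other such rows. In the 144 Zfp rows that reached 1 FPKM in every group, 96 (66.7%) were lower with LPS and 12 (8.33%) higher, with a median of -0.53. Among the 8968 other rows that did so, 57.1% were lower and 17.3% higher, with a median of -0.41. A total of 3 Zfp rows, Zfp811, Zfp558 and Zfp503, entered only through samples with LPS, so that an LPS increase was part of how they were chosen.

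The largest decrease was that of Zfp395, a DNA-binding protein with 1 finger match. Its FPKM was 13.2, 15.9 and 15.1 in control and 0.320, 0.190 and 0.173 in LPS samples. The groups lay far apart, and the mean was 64.6-fold lower with LPS (log2 fold change -3.68, SE 0.086, adjusted p = 9.03e-10 by limma). Zfp704, which is related to Zfp395 in sequence, had 6.36, 4.75 and 5.27 FPKM in control and 0.998, 0.599 and 0.452 with LPS, a log2 fold change of -1.95 (SE 0.191, adjusted p = 5.46e-06). Both genes therefore ended near or below 1 FPKM in all LPS samples.

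Zfp362 had 10.6, 12.1 and 9.96 FPKM in control and 2.11, 1.68 and 2.13 with LPS, a 5.52-fold lower mean (SE of the log2 fold change 0.114, adjusted p = 1.22e-07). Zfp652, which acts with the co-repressor CBFA2T3, had 10.5, 9.71 and 8.93 FPKM in control against 2.46, 1.94 and 1.70 (log2 fold change -1.83, SE 0.145, adjusted p = 1.19e-06). Neither gene overlapped between the groups, which their choice as large called decreases made likely. Of all expressed rows 58.7% lay wholly below control with LPS. Zfp688, with a KRAB-like box and 2 fingers, had 6.76, 8.04 and 7.44 FPKM in control and 0.694, 1.57 and 1.43 with LPS, a log2 fold change of -1.94 (SE 0.159, adjusted p = 1.52e-06). Zfp367 had 4.76, 4.57 and 5.00 FPKM in control and 1.37, 0.747 and 0.831 with LPS, a log2 fold change of -1.55 (SE 0.171, adjusted p = 1.29e-05). The remaining large decreases are uncertain, because much of the transcript is shared with another annotated gene. Zfp90 shares 70.3% of its 50-base words with Gm26786 and fell by 1.97 on the log2 scale, and Zfp524 shares 47.9% with Gm44973 and fell by 1.70. Relative to the median of all rows, these 8 decreases ran from -3.23 for Zfp395 to -1.11 for Zfp367.

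Zfp800, Zfp263 and Zfp131 rose most. Zfp800 had 5.43, 3.63 and 4.05 FPKM in control and 48.5, 22.0 and 25.8 with LPS, a 7.35-fold higher mean (log2 fold change 2.56, SE 0.316, adjusted p = 3.06e-05). Its LPS replicate 1 was far above the other two. Zfp263, which carries 9 fingers, had 21.7, 20.7 and 19.6 FPKM in control and 119.2, 91.8 and 91.9 with LPS, a 4.89-fold higher mean (log2 fold change 2.23, SE 0.104, adjusted p = 3.08e-08). With LPS it was above all other Zfp rows in every LPS sample. Zfp131, a BTB domain transcription factor, had 7.80, 6.58 and 6.71 FPKM in control and 39.8, 27.1 and 30.2 with LPS (log2 fold change 2.04, SE 0.15, adjusted p = 7.03e-07).

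Zfp281, a factor known for limiting self-renewal of embryonic stem cells, had 6.02, 5.19 and 5.30 FPKM in control and 12.5, 13.6 and 14.9 with LPS (log2 fold change 1.17, SE 0.09, adjusted p = 9.37e-07). Zfp811, with a KRAB-like box and 13 fingers, was listed at 0, 0 and 0.0606 FPKM in control and at 1.40, 1.36 and 1.31 with LPS, a log2 difference of 1.21. Zfp558 had 0.206, 0.291 and 0.264 FPKM in control and 1.11, 1.40 and 1.65 with LPS, a log2 difference of 0.92. Both are members only through samples with LPS, so their values are a description and no test is given. In all 6 of these genes the groups did not overlap, which their choice as the largest called increases made likely. Over all expressed rows 17.9% lay wholly above control. The increase of the 6 relative to the median of all rows ran from 1.37 for Zfp558 to 3.00 for Zfp800.

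The other 10 rows that were higher with LPS changed less, by log2 fold changes of 0.15 to 0.73. They included Zfp143, which binds promoters at sites holding ACTACAA, at 0.38, and Zfp598, a ubiquitin ligase that marks collided ribosomes, at 0.39. Of the 16 higher rows, 4 were among the 127 with a KRAB-like box (3.15%) and 12 among the 107 without (11.2%). The share of higher rows was 16.9% over all expressed rows. The 16 include Zfp811, Zfp558 and Zfp503, which entered only through samples with LPS, so an LPS increase was part of their choice. Zfp503 is among the other 10.

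**Figure D3:**
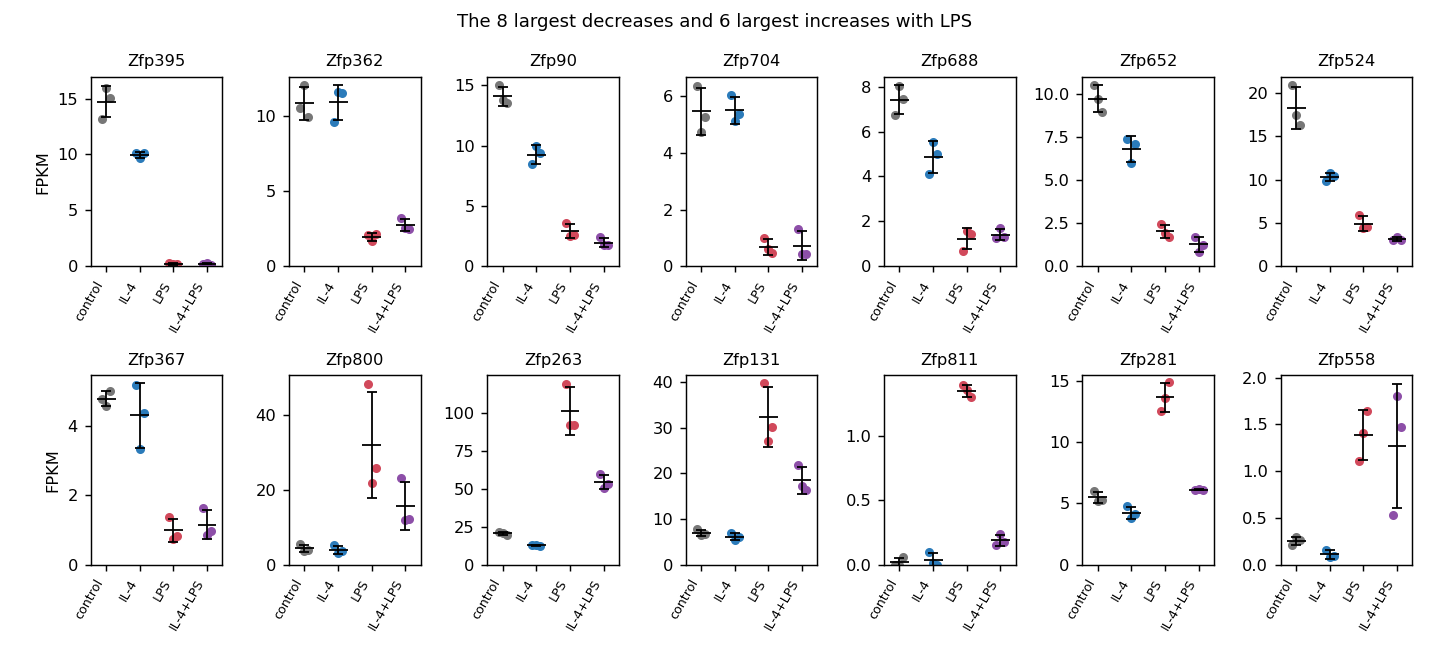
FPKM (vertical axes, each from 0) in the 4 groups of the 8 Zfp genes with the largest decrease and the 6 with the largest increase with LPS. Points are the 3 samples of a group, lines the mean and error bars the SD. In each panel the LPS points lie clear of the control points, which the choice of the largest changes made likely.

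Among the 6 Zfp genes of highest mean level, responses differed in direction. Zfp207, which binds the spindle checkpoint protein BUB3, had 54.1, 47.8 and 51.9 FPKM in control and 56.5, 56.0 and 58.7 with LPS, a log2 fold change of 0.15 (SE 0.063, adjusted p = 0.0464). That call was lost in 11 of 22 alternatives, 8 of them with a single sample left out, and the largest p of those 8, 0.175, came without control replicate 2. Zfp513 was higher with LPS, at 20.5, 26.3 and 23.7 FPKM against 13.1, 14.5 and 13.8 (log2 fold change 0.73, SE 0.123, adjusted p = 0.000297). Zfp710, Zfp91 and Zfp703 were lower, by log2 fold changes of -0.60, -0.68 and -1.18. Zfp91 is known as a ubiquitin ligase of the noncanonical NF-kB pathway, and Zfp703 as a co-repressor without a finger of the searched form.

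IL-4 changed fewer Zfp genes than LPS did, and the change was mostly downward. Against control, 57 rows (23.7%) were lower and 6 (2.49%) higher in IL-4, while 21% of all expressed rows were lower and 16% higher. The median log2 fold change was -0.20 in Zfp rows and -0.04 in the other rows. It lay below that of the other rows in each bin of level, at -0.18 against -0.15 under 2 FPKM, -0.23 against -0.12 from 2 to 5, and -0.18 against 0 at 5 and over. In all, 190 of 241 Zfp rows (78.8%) were below the median of all rows. The order of the shares turned after quantile normalization, with 30 Zfp rows lower (12.4% against 18.3% of all rows), with a pseudocount of 0.1, with 42 (17.4% against 18.5%), and without control replicate 1, with 42 (17.4% against 18.6%). With the replicate number as a block 94 were lower (39% against 28.4%). With replicates 2 and 3 only, 88 rows were lower and 12 higher, and 29.4% of all rows were lower and 21.5% higher.

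The largest IL-4 decrease was that of Zfp467, known for favouring fat over bone cell formation, with 17.3, 13.6 and 13.6 FPKM in control and 5.72, 4.91 and 4.11 in IL-4 (log2 fold change -1.42, SE 0.139, adjusted p = 2.91e-05). Zfp580 had 3.52, 3.32 and 3.23 FPKM in control and 0.932, 1.20 and 1.33 in IL-4 (log2 fold change -1.02, SE 0.105, adjusted p = 4.03e-05). Zfp821 had 6.83, 4.92 and 5.18 FPKM in control and 2.69, 2.37 and 2.21 in IL-4 (log2 fold change -0.95, SE 0.129, adjusted p = 0.00029). In these genes no IL-4 sample reached a control sample, which their choice as the largest called decreases made likely. Of all expressed rows 29.5% lay wholly below control in IL-4. Zfp524, uncertain for its shared sequence, fell by 0.76 on the log2 scale.

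The 6 rows that were higher in IL-4 were Zfp101, Zfp142, Zfp207, Zfp259, Zfp609 and Zfp703. Zfp609 had 2.39, 2.31 and 2.30 FPKM in control and 4.84, 4.74 and 4.50 in IL-4, a 2.01-fold higher mean (log2 fold change 0.77, SE 0.12, adjusted p = 0.000671). Zfp101, with a KRAB-like box, had 2.27, 1.11 and 1.30 FPKM in control and 6.72, 2.83 and 3.46 in IL-4 (log2 fold change 1.02, SE 0.292, adjusted p = 0.0197). That call was lost with a pseudocount of 0.1, with an adjusted p by limma of 0.0876. It was also lost without IL-4 replicate 1, control replicate 2 or control replicate 3, with adjusted p by limma of 0.0614, 0.0701 and 0.0619. Zfp703 had 17.4, 22.8 and 21.8 FPKM in control and 29.0, 31.4 and 29.9 in IL-4 (log2 fold change 0.53, SE 0.146, adjusted p = 0.0166 by limma). That call was lost without IL-4 replicate 2 or control replicate 1, with adjusted p by limma of 0.0548 and 0.0634. Zfp142, the member with the most fingers, at 36, had a log2 fold change of 0.44 (SE 0.115, adjusted p = 0.0131).

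After IL-4, LPS again lowered most Zfp genes on the deposited scale. Between IL-4+LPS and IL-4, 174 rows (72.2%) were lower and 16 (6.64%) higher, against 57.9% and 15% of all expressed rows, and the median was -0.56 in Zfp rows and -0.40 in the others. With median scaling 121 rows were lower and 22 higher, and 36.3% of all rows were lower. With quantile normalization 76 (31.5%) were lower and 31 higher against 37.3% of all rows lower, so that here too the order of the shares turned. This comparison shares no sample with LPS minus control. A total of 162 rows were lower in both, which is 90.5% of the 179 lower without IL-4 and 93.1% of the 174 lower after it, beside 88.4% and 88.3% over all expressed rows. A total of 12 rows were higher in both, 75% of the 16 in each comparison, beside 74.2% and 83.3% over all rows. Zfp395 was again the lowest, at 10.1, 9.66 and 10.2 FPKM in IL-4 and 0.229, 0.277 and 0.157 in IL-4+LPS (log2 fold change -3.17, SE 0.086, adjusted p = 1.29e-09).

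Within the LPS-treated cells, earlier IL-4 made less difference. Between IL-4+LPS and LPS, 38 rows (15.8%) were lower and 6 (2.49%) higher, against 15.8% and 15% of all expressed rows, with a median of -0.12 in Zfp rows and -0.03 in the others. Without IL-4+LPS replicate 3, 21 rows were lower (8.71% against 11.9% of all rows), and without any 1 of 7 samples 2 or 3 were higher, against 11.9% to 15% of all rows. With replicates 2 and 3 alone 62 were lower (25.7% against 25.9%) and 5 higher, and with the replicate block 69 were lower (28.6% against 23.8%). This comparison shares no sample with IL-4 minus control, and 22 rows were lower in both, 38.6% of 57 and 57.9% of 38, beside 42.9% and 56.8% over all expressed rows.

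Several genes that LPS raised were lower after IL-4. Their choice and this decrease both rest on the same LPS samples. High values in those samples favour an increase over control and a decrease after IL-4 alike. Of the 16 rows that LPS raised, 10 were called lower after IL-4, beside 21 of the 179 rows that LPS lowered. How much of this came from the shared samples was not tested. Zfp281 had 6.07, 6.19 and 6.11 FPKM in IL-4+LPS, below its LPS values and close to its control values (log2 fold change against LPS -1.04, SE 0.09, adjusted p = 1.27e-05). Zfp811 had 0.151, 0.236 and 0.177 FPKM in IL-4+LPS, far under the LPS values through which it is a member, a log2 difference of -0.99 for which no test is given. Zfp263 had 59.5, 50.3 and 52.9 FPKM and Zfp131 had 21.8, 17.2 and 16.5 FPKM, below LPS by log2 fold changes of -0.88 and -0.77 (adjusted p = 0.000115 and 0.00309). The interactions of Zfp263 and Zfp131 did not pass, as given below, so that no change of their LPS response was called. Zfp800 had 23.2, 12.0 and 12.1 FPKM, with groups that overlapped and a log2 fold change of -0.96 (SE 0.316, adjusted p = 0.041). The call for Zfp800 was lost in 10 of 22 alternatives, among them each of 8 single samples left out, with p up to 0.135 without IL-4+LPS replicate 2 or 3. Zfp821 had 7.96, 7.06 and 6.89 FPKM in LPS and 2.18, 3.07 and 2.26 in IL-4+LPS, the largest decrease of this comparison (log2 fold change -1.25, SE 0.129, adjusted p = 4.55e-05).

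Higher after IL-4 were Zfp422, Zfp346, Zfp961 and Zfp516 among others. Zfp422 had 4.08, 5.12 and 6.61 FPKM in LPS and 8.47, 11.5 and 11.1 in IL-4+LPS (log2 fold change 0.87, SE 0.142, adjusted p = 0.00105). It is uncertain, because it shares 20.4% of its words with Zfp955b. Zfp346, which binds double-stranded RNA, had 1.66, 2.10 and 1.59 FPKM in LPS and 2.84, 3.23 and 3.27 in IL-4+LPS (log2 fold change 0.57, SE 0.089, adjusted p = 0.000787). Zfp961 and Zfp516 differed by 0.47 and 0.37 on the log2 scale (adjusted p = 0.0351 and 0.0319). Zfp961 lost its call in 8 of 22 alternatives, 6 of them a sample left out, with p up to 0.128 without IL-4+LPS replicate 2. Zfp516, an activator of the brown fat programme, lost it in 5, of which 4 were a sample left out, with p up to 0.119 without LPS replicate 3.

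The interaction takes the response to LPS in cells given IL-4 and subtracts the response in cells that were not, and it tests whether IL-4 changed the response. It was negative in 4 rows (1.66%) and positive in 6 (2.49%), against 4.63% and 4.58% of all expressed rows. The counts moved with the fit, to 12 and 18 with the replicate block (9.78% and 10.2% of all rows) and to 20 and 16 with replicates 2 and 3 only (12.4% and 13.2%). Zfp281 (-0.73, SE 0.127, adjusted p = 0.00544) rose less with LPS after IL-4 than without it. Zfp811 had a value of -1.01, which rests on the LPS samples that made it a member. Zfp422 (1.24, SE 0.2, adjusted p = 0.00356), Zfp516 (0.91, SE 0.16, adjusted p = 0.00554) and Zfp346 (0.89, SE 0.125, adjusted p = 0.0018) were higher with LPS after IL-4, and without IL-4 none of them was. Of these, Zfp516 and Zfp346 were lower with LPS alone, by -0.58 and -0.65, and higher with LPS after IL-4, by 0.34 and 0.24. The large LPS increases of Zfp263 and Zfp131 gave interactions of -0.23 and -0.59 that did not pass (adjusted p = 0.406 and 0.115).

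**Figure D4:**
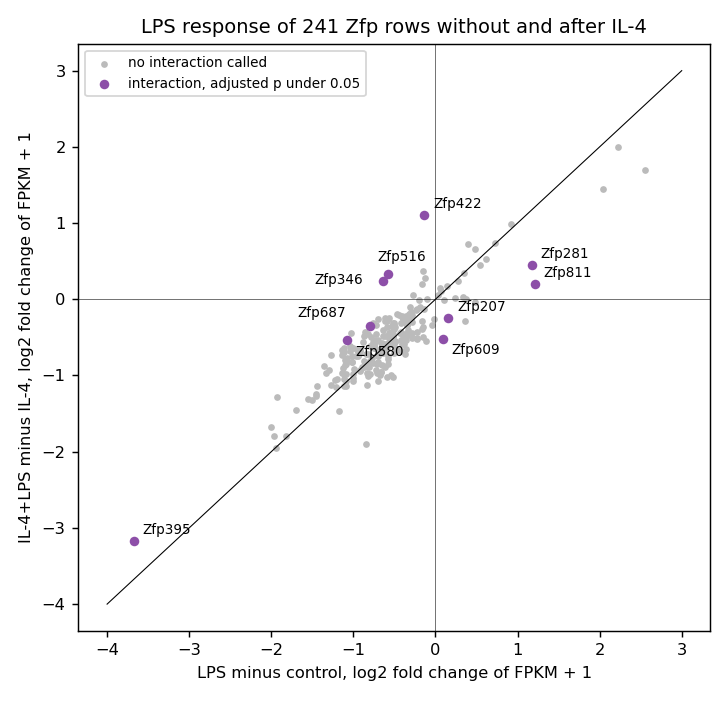
LPS response of each of the 241 Zfp rows without IL-4 (horizontal axis, LPS minus control) and after it (vertical axis, IL-4+LPS minus IL-4), both as log2 fold changes of FPKM + 1, with the line of equal response. Purple points are the 10 rows whose interaction passed the threshold, of which 6 lie above the line and 4 below it.

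Coding sequences were read from the longest protein-coding GENCODE transcript of 234 rows. The median number of C2H2 fingers was 10 and the highest 36. A KRAB-like box was matched in 127 rows, while 107 had none. KRAB-like members were expressed at a median mean of 1.28 FPKM with 12 fingers, and the others at 4.37 FPKM with 7. With LPS, 95 of 127 KRAB-like rows (74.8%) and 78 of 107 others (72.9%) were lower, with medians of -0.65 and -0.55. The share over all expressed rows was 57.7%, with a median of -0.44. Within bins of level the medians of the KRAB-like and other rows were -0.65 in 91 and -0.69 in 21 rows under 2 FPKM, -0.64 and -0.58 between 2 and 5 FPKM, and -0.47 and -0.43 at 5 and over, where the KRAB-like rows numbered 6. IL-4 lowered 22 KRAB-like rows (17.3%) and 34 others (31.8%), beside 21% of all expressed rows. The IL-4 medians were in the other order, at -0.21 in KRAB-like rows and -0.18 in the others. Of these rows 81.9% and 75.7% lay below the median of all rows.

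By finger count, the median LPS response was -0.69 for 64 rows with 1 to 7 fingers, -0.59 for 92 rows with 8 to 12 and -0.59 for 73 rows with 13 or more. The 5 rows in which no finger of the searched form was found were Zfp839, Zfp935, Zfp503, Zfp703 and Zfp330. Of 33 rows that share over 20% of their words with another gene, 21 (63.6%) were lower with LPS and none of them was higher. Of the 201 rows below that limit 152 (75.6%) were lower and 16 (7.96%) higher. The shares over all expressed rows were 57.7% and 16.9%.

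Zfp genes lie in clusters. In the mm10 coordinates of the tables, 61 of the 241 rows were on chromosome 7, 35 on chromosome 17 and 19 on chromosome 13. With neighbours within 200000 bases joined, 10 runs of 5 or more rows held 81 rows, 61 of them KRAB-like, and 104 rows stood alone, 30 of them KRAB-like. In these runs, 63 of the 81 rows (77.8%) were lower with LPS and 2 higher, and of the 104 rows that stood alone 71 (68.3%) were lower and 12 (11.5%) higher. Beside these stand 57.7% lower and 16.9% higher over all expressed rows.

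The longest run, at chr17:21383748-22456689, held 14 rows from Zfp677 to Zfp946, all KRAB-like, of which 8 were lower and none higher, with a median of -0.67. That share of lower rows is close to the 57.7% over all expressed rows, where the median was -0.44. The run at chr13:67128228-67827000 held 12 KRAB-like rows with a median of -0.62. At chr7:127233443-127614433 all 7 rows were lower, among them Zfp688. The run with the lowest median, -1.06, was at chr7:4915217-5053723, where 6 rows without a KRAB-like box, Zfp524 and Zfp580 among them, gave 5 lower rows. Neighbours did not always share a direction, since Zfp811, higher with LPS, lies in a run of 8 at chr17:32765497-33110704 in which 6 were lower.

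Promoters were available for 198 of the 240 symbols, as 244 windows of 300 bases from RefSeq on GRCm38.p6. They held a median of 16 CpG and 56.3% GC, against 7 and 52.7% over all 32851 windows. The Zfp windows belong to genes expressed here, while all windows were taken whatever the expression of the gene. Whether other expressed genes differ from all windows in the same way was not tested. Several words were searched on both strands, and windows can hold more than 1 of them. The word CCGGAAG, the core bound by many ETS factors, was in 22.1% of Zfp windows and 8.9% of all. The GC box, GGGCGG, was in 50.8% and 35.7%, and the word CCAAT in 47.5% and 37.4%. The word ACTACAA was in 6.1% and 3.2%, and the TATA box, TATAAA, in 5.3% and 13.6%. A STAT consensus was in 6.6% and 7.0%, and an NF-kB consensus in 2.5% and 1.5%. Counted per gene, the ETS core was in 38 of 145 genes lower with LPS, in 2 of 15 higher and in 8 of 38 not called, so that it was found in all 3 classes. The NF-kB consensus was in 5 of the 145, none of the 15 and 1 of the 38, and the STAT consensus in 12, 1 and 1. Over all 27025 genes with a window, 9.93% held the ETS core, 1.63% the NF-kB consensus and 8.01% the STAT consensus. Of the genes lower with LPS, 26.2%, 3.45% and 8.28% did so, in this order.

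The 250 bases before the start of 5 genes of the named responses are shown, 3 that were higher with LPS (Zfp263, Zfp281 and Zfp811) and 2 that were lower (Zfp688 and Zfp367), with the word CCAAT, the GC box and the ETS core on either strand in capitals. They are chr16:3743849-3744098 (+), chr1:136624651-136624900 (+), chr17:32809932-32810181 (-), chr7:127422035-127422284 (-) and chr13:64153200-64153449 (-) in this order, each read 5′ to 3′ along the gene.
Zfp263: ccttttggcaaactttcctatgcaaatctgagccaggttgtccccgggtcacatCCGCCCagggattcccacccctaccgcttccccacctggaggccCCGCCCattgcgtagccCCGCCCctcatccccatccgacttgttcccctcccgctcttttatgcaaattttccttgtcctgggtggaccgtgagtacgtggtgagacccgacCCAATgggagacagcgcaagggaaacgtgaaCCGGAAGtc
Zfp281: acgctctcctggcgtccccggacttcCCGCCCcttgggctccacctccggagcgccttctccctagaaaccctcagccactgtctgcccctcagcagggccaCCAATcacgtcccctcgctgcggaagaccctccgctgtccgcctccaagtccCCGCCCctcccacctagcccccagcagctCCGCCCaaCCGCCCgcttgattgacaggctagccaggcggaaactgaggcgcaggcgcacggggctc
Zfp811: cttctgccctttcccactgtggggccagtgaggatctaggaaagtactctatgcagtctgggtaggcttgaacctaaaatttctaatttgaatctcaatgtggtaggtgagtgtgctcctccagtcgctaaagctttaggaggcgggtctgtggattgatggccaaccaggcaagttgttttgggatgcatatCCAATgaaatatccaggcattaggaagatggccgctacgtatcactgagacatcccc
Zfp688: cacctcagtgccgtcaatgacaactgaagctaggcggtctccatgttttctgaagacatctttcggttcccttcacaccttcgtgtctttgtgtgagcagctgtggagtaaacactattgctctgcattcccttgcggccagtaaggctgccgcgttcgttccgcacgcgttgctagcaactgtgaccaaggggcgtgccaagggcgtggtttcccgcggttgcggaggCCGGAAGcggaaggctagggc
Zfp367: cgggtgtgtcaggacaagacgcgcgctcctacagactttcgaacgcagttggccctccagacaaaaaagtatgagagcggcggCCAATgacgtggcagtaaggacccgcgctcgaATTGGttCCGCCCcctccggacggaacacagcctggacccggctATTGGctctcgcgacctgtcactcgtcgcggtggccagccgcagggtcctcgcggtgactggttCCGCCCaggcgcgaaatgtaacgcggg
Zfp263 held 3 GC boxes, 1 CCAAT word and the ETS core next to the start, while Zfp281 held 4 GC boxes and 1 CCAAT word. Zfp688 held the ETS core alone, Zfp367 held 3 CCAAT words and 2 GC boxes, and Zfp811 held a single CCAAT word. Genes of both directions thus shared words.

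Partners of the KRAB box also changed with LPS. The 14 listed genes encode proteins that KRAB zinc finger proteins recruit through TRIM28, or that work with it, and are not all parts of 1 complex. All were expressed, and 10 were lower and 4 higher with LPS on the deposited scale. Over all expressed rows 57.7% were lower and 16.9% higher. The median of the 14 was -0.95 beside -0.44 over all rows. Setdb1 fell from 16.4 to 3.94 FPKM (means of 3) and Trim28, the scaffold that binds the KRAB box, from 33.9 to 17.7, by log2 fold changes of -1.82 and -0.90 (adjusted p = 9.74e-09 and 0.00236). Dnmt1, the maintenance DNA methyltransferase, fell from 23.6 to 3.28 FPKM (log2 fold change -2.55, adjusted p = 8.01e-07). Chd4, Hdac1, Hdac2 and Morc3 were higher, by 0.26 to 0.68. IL-4 lowered 3 of the 14 and raised 1, beside 21% and 16% of all expressed rows. Of the HUSH silencing complex 3 genes were found, of which Mphosph8 and Morc2a were lower with LPS and Pphln1 higher.

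Other C2H2 families gave LPS medians of -0.45 in 34 Zbtb rows, -0.67 in 8 Zscan rows, -0.76 in 8 Zkscan rows and -0.66 in 14 Zfp rows with a letter suffix. Lower rows numbered 22, 8, 7 and 10 of these, and 6 Zbtb rows were higher, beside 57.7% lower and 16.9% higher over all expressed rows. Of 6 CCCH genes that bind or act on AU-rich messenger RNA, Zfp36 and Zc3h12a were higher with LPS and Zfp36l1 and Zfp36l2 lower. Zfp36 had 93.6, 114.4 and 111.7 FPKM in control and 349.2, 658.4 and 622.2 with LPS (log2 fold change 2.29, SE 0.293, adjusted p = 3.9e-05).

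The plot of medians under each processing sets the Zfp rows beside the other rows. The gap between them was widest with a pseudocount of 0.1 and narrowest after quantile normalization.

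**Figure D5:**
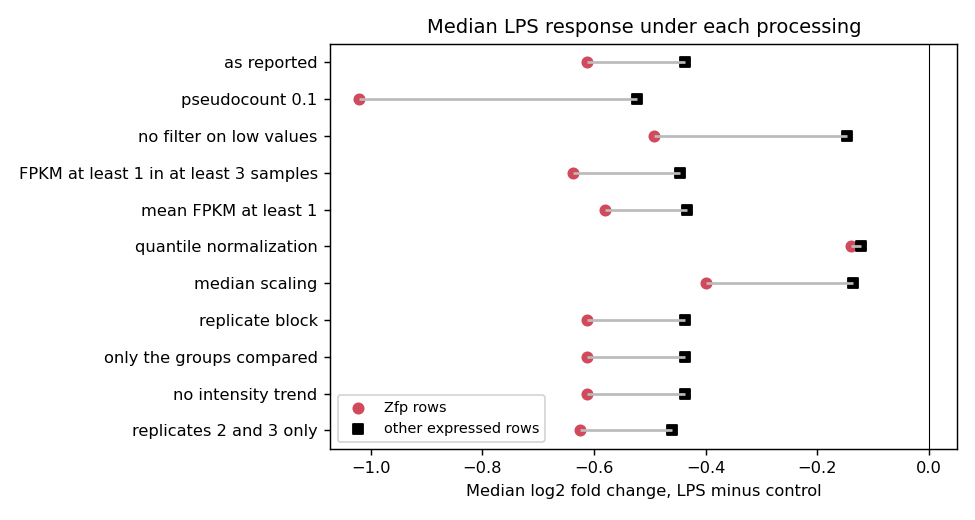
Median LPS minus control log2 fold change of Zfp rows (red circles) and of all other expressed rows (black squares) under the reported processing and 10 alternatives. The Zfp median is -0.61 against -0.44 as reported, -1.02 against -0.52 with a pseudocount of 0.1 and -0.14 against -0.12 after quantile normalization.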

How the data were processed

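Per the labels and methods, poly-A RNA was sequenced, and the authors mapped paired reads to mm10 with TopHat2 2.0.7 and deposited FPKM from Cufflinks 2.0.2 (versions from the submitters' processing notes), 1 table per sample. The annotation is not given in the sources used here. FPKM is relative to each library, absolute depth is unknown, and no counting interval could be formed. Tables of 23847 rows were joined, rows of at least 1 FPKM in at least 1 sample kept, and log2(FPKM + 1) fitted with limma 3.58.1 (group means of all 12 samples, intensity trend, two-sided Benjamini-Hochberg adjustment per contrast, threshold 0.05), which was tested on simulated data. The members, lists and tests were chosen with earlier results of these data known. Named genes were the largest called changes per contrast whose sign held in each of 3 replicate numbers, and the 6 highest mean levels. For the largest changes, groups that do not overlap were thus likely by that choice. Fingers (C-x(2,4)-C-x(12)-H-x(3,5)-H) and KRAB-like boxes (a pattern in the first 250 residues, which can miss diverged boxes) came from translated GENCODE vM21 coding sequences, and shared sequence from its transcripts. The protein table planned as their source was not used here. Alternatives were a pseudocount of 0.1, other filters, scalings and fits, and each sample left out.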

Additional observations from a re-analysis of the deposited data

Results flagged for a closer look

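The response to LPS differed with and without IL-4 by the interaction test of limma in 10 Zfp rows, 4 with a negative and 6 with a positive value, while 4.63% and 4.58% of all expressed rows passed in these directions. The 3 largest in each direction were Zfp811 (-1.01), Zfp281 (-0.73) and Zfp609 (-0.61), and Zfp422 (1.24), Zfp516 (0.91) and Zfp346 (0.89), where a positive value means that the signed response was higher after IL-4. Zfp811 is a member only through its LPS samples, so its value is a description. The value of Zfp609 (adjusted p = 0.0491) passed in 6 of 21 alternatives, and leaving out any single sample but LPS replicate 1 lost it, with p up to 0.115 without LPS replicate 3. Zfp281, Zfp422, Zfp516 and Zfp346 passed in every alternative run, though Zfp422 is uncertain for its shared sequence. The remaining 4 were Zfp207 (-0.40), Zfp395 (0.51), Zfp580 (0.55) and Zfp687 (0.45).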

How the results depend on the processing

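The 10 alternatives besides the samples left out and the 12 samples left out reversed the direction of no named gene and of neither difference between Zfp and other medians given here. The Zfp median of the interaction, 0.046, was -0.027 after quantile normalization, -0.012 without IL-4+LPS replicate 1 and -0.003 without control replicate 1. Of 892 alternatives of named genes 837 kept the call and 55 lost it, and of 262 for counts and medians 51 moved. With quantile normalization, Zfp rows lower and higher numbered 67 and 37 for LPS minus control, 30 and 11 for IL-4 minus control, and 76 and 31 for IL-4+LPS minus IL-4. Lower rows were then 27.8%, 12.4% and 31.5% of Zfp rows against 38.7%, 18.3% and 37.3% of all rows, the order opposite to that reported in each of these contrasts. With replicates 2 and 3 only, IL-4 minus control gave 88 lower and 12 higher (29.4% and 21.5% of all rows), IL-4+LPS minus LPS 62 lower (25.9%), while 20 interactions were negative and 16 positive (12.4% and 13.2%). With only the groups compared in the fit, IL-4+LPS minus LPS gave 21 lower and 2 higher (11.5% and 11.8% of all rows), and without a filter 3 higher (9.84%). The interaction gave 2 negative at a mean FPKM of at least 1 (4.64% of all rows). It gave 3 positive with a pseudocount of 0.1 (3.11%) and 10 without a filter (3.65%).

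With the replicate number as a block, lower rows numbered 94 for IL-4 minus control (28.4% of all rows) and 69 for IL-4+LPS minus LPS (23.8%), with 12 negative and 18 positive interactions (9.78% and 10.2%). The replicate numbers were not taken to pair the samples in any reported test, though the rule for named genes used them: deviations from the group means correlated above 0.1 in 11 of 18 same-number pairs (0.0024 to 0.386), and 9 of 12 samples correlated best with their own number.

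The difference between Zfp and other medians with LPS, -0.18, was -0.50 with a pseudocount of 0.1, -0.35 without a filter, -0.15 at a mean FPKM of at least 1, -0.019 after quantile normalization and -0.26 after median scaling. After IL-4 it was -0.16, and -0.48, -0.30, -0.024 and -0.25 with the pseudocount, no filter, quantile normalization and median scaling. The causes were not tested.

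Leaving out 1 sample at a time gave differences of -0.22 (without control replicate 2) to -0.084 (without control replicate 1) with LPS, and -0.22 (without IL-4 replicate 2) to -0.071 (without IL-4 replicate 1) after IL-4. IL-4+LPS minus LPS then gave 21 to 46 lower and 2 to 6 higher, beside 11.9% to 18.4% and 11.9% to 15.7% of all rows. The interaction gave 2 (without LPS replicate 3) to 7 (without IL-4+LPS replicate 1) negative and 3 to 7 positive, with 3 positive in each of 5 such fits. Of all rows 2.98% to 5.83% were then negative and 2.78% to 5.58% positive. LPS minus control gave 154 to 185 lower and 13 to 18 higher, beside 53.5% to 58.6% and 15.3% to 17.6% of all rows. An arm left with 2 samples used the pooled spread. Low levels and unknown depth limit the smaller changes.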
